A study of Mus musculus with 2 samples.

Results

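The dual-specificity phosphatase genes Dusp1, Dusp2, Dusp4, Dusp5, Dusp6, Dusp7, Dusp10, Dusp11, Dusp16 and Dusp22 are described here in mouse regulatory T cells, a CD4 lineage under control of Foxp3 that holds immune reactions in check. They are 10 of 55536 annotated genes in the gene tables and were found by GENCODE M21 gene identifier, with 40 annotated transcripts between them. They were chosen by symbol with results of these data known, among them the Dusp1 counts of both libraries. PolyA plus RNA-seq was made from 1 sample, sequenced as 2 libraries that the labels number as technical replicates and that are called library 1 and library 2. The donor of these primary cells was 1 male mouse, adult at 4 months, whose strain name joins Foxp3CreERT2, a tamoxifen-dependent Cre recombinase at the Foxp3 locus, to the reporter Rosa26YFP. The labels trace the cells to bone marrow and state no sort, gate or treatment. With 1 group, no condition is compared, and each SD below covers technical variation only (n = 2).

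Library 1 held 15821875 estimated counts on genes and library 2 held 16153671. The 5 regulatory T cell markers listed, Foxp3 among them, were all at 1 TPM (a length-corrected share of transcripts) or more in both libraries, as were the 4 T cell markers. Foxp3 had 43.2 TPM in library 1 and 36.2 TPM in library 2. The 4 B cell markers summed to 1.94 TPM in library 1 and 2.00 TPM in library 2, and the 5 myeloid markers to 3.68 and 6.31 TPM. Itgax, Pf4 and Ppbp had no counts in either library.

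Mitogen-activated protein (MAP) kinases of the ERK, JNK and p38 classes carry signals from the T cell receptor and from cytokines to the nucleus, and each works only while a threonine and a tyrosine of its activation loop are both phosphorylated. The classical dual-specificity phosphatases remove both phosphates and so end the signal, and several of their genes are switched on by the pathway that they restrain. Dusp1, Dusp2, Dusp4 and Dusp5 encode nuclear enzymes, Dusp6 and Dusp7 cytoplasmic enzymes that prefer ERK, and Dusp10 and Dusp16 enzymes that prefer JNK and p38. Dusp11 and Dusp22 are atypical members that lack the kinase-binding domain. The Dusp11 protein removes phosphates from the 5′ ends of RNA, and the Dusp22 protein dephosphorylates the kinase Lck and dampens T cell receptor signalling.

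The catalytic signature of these enzymes, a cysteine that takes up the phosphate and, after 5 intervening residues, an arginine that holds it, is what the 10 genes have in common at the sequence level. It is shown because in 8 of the 10 genes, all but Dusp4 and Dusp5, part of the counts was given to transcripts that do not encode it. The 9 codons around it are printed 5′ to 3′ from the GENCODE M21 transcript with the longest such coding part (mm10), with the cysteine and arginine codons in capitals.
Dusp1: catTGCcaggccggcatctccCGGtca
Dusp2: cacTGCcaagctggcatctctCGCtca
Dusp4: cacTGCcaggccggcatctccCGAtca
Dusp5: cacTGCgaagctggggtttccCGGtcg
Dusp6: catTGCttggcaggtatcagcCGCtct
Dusp7: cacTGCctagcaggcatcagcCGTtca
Dusp10: cacTGCcaggccggcgtgtccCGAtcc
Dusp11: cacTGCacccatggcttaaatAGGact
Dusp16: cacTGCttagctgggatctctCGCtcc
Dusp22: catTGCctggctggggtctccAGGagt
The Dusp1 stretch lies at chr17:26506589-26506615 on the minus strand, and the Dusp4 stretch, at chr8:34818433-34818459 on the plus strand, differs from it at 2 of 27 bases. The other members differ from Dusp1 at 5 to 15 bases, with Dusp11 the most distant. The stretch falls within 1 exon in every member except Dusp22, where it spans a junction. Each annotated coding part was read from its first base or, where that frame held a stop, in the frame with the fewest stops. In that frame the signature was searched as histidine, cysteine, 5 residues, arginine, and serine or threonine. It occurs in all 10 listed genes, in 11 of the 14 other Dusp genes, and in 143 of 21901 protein-coding genes, or 0.653%. A match describes the annotated sequence and does not measure activity.

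All 10 genes, each protein-coding, were at 1 TPM or more in both libraries. So were 10251 of 22028 protein-coding genes and 13471 of all 55536 genes. Of the 10 genes 7 reached 5 TPM in both. The median of their mean levels was 14.6 TPM, against 0.625 TPM over all protein-coding genes. The span from the highest to the lowest mean level was 62.1-fold. TPM corrects for transcript length, so these levels can be set side by side only as far as the length given to each gene holds.

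Dusp11, the RNA phosphatase (ENSMUSG00000030002.15, mm10 chromosome 6, 85942268 to 85961667, minus strand), stood highest, at 143.6 TPM in library 1 and 156.6 TPM in library 2. It held 49.9% of the summed TPM of the 10 genes in library 1 and 57.9% in library 2, and its mean lay above that of 96.4% of protein-coding genes. The size of this lead rests on the length behind the level. Per kilobase of its longest coding transcript, a 6435-base RNA, Dusp11 had 31.5 CPM (counts scaled to library size) in library 1, level with 32.3 for Dusp1 there, and 31.2 in library 2, against 11.9 for Dusp1. The mean level of Dusp11 was 4.58 times that of Dusp1 in TPM and 1.42 times on the per-kilobase scale.

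Among the nuclear enzymes, Dusp1 (ENSMUSG00000024190.7, chromosome 17, 26505590 to 26562128, minus strand), an immediate early gene that acts on p38, JNK and ERK, had 47.2 TPM in library 1 and 18.3 TPM in library 2. It was the second of the 10 genes in library 1 and the third in library 2, so its mean of 32.8 ± 20.5 TPM describes neither library. Dusp2 (ENSMUSG00000027368.6, chromosome 2, 127336159 to 127338376, plus strand), whose product is abundant in activated lymphocytes, had 29.9 TPM in library 1 and 33.8 TPM in library 2. The order of Dusp1 and Dusp2 thus changed between the libraries. Dusp5 (ENSMUSG00000034765.6, chromosome 19, 53529109 to 53542431, plus strand), selective for ERK, was at 8.71 and 8.23 TPM. Dusp4 (ENSMUSG00000031530.6, chromosome 8, 34807297 to 34819894, plus strand), which acts on ERK and JNK, was at 2.51 and 2.76 TPM.

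Of the ERK-directed cytoplasmic enzymes, Dusp6 (ENSMUSG00000019960.8, chromosome 10, 99263231 to 99267489, plus strand) had 21.1 TPM in library 1 and 17.4 TPM in library 2. Dusp7 (ENSMUSG00000053716.9, chromosome 9, 106368632 to 106375724, plus strand) had 15.9 and 15.7 TPM. Dusp7 was close to Dusp10 in TPM. Per kilobase of the longest coding transcript, Dusp7 had 6.88 CPM in library 1 and 7.13 in library 2, against 10.1 and 10.4 for Dusp10. Of the JNK and p38 enzymes, Dusp10 (ENSMUSG00000039384.8, chromosome 1, 184013302 to 184075636, plus strand) had 13.7 and 13.2 TPM. Dusp16 (ENSMUSG00000030203.17, chromosome 6, 134715468 to 134792625, minus strand) had 2.78 and 2.05 TPM. The Lck phosphatase gene Dusp22 (ENSMUSG00000069255.13, chromosome 13, 30659999 to 30711231, plus strand) was at 2.61 and 2.46 TPM, next to Dusp4 and Dusp16 at the low end.

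**Figure D1:**
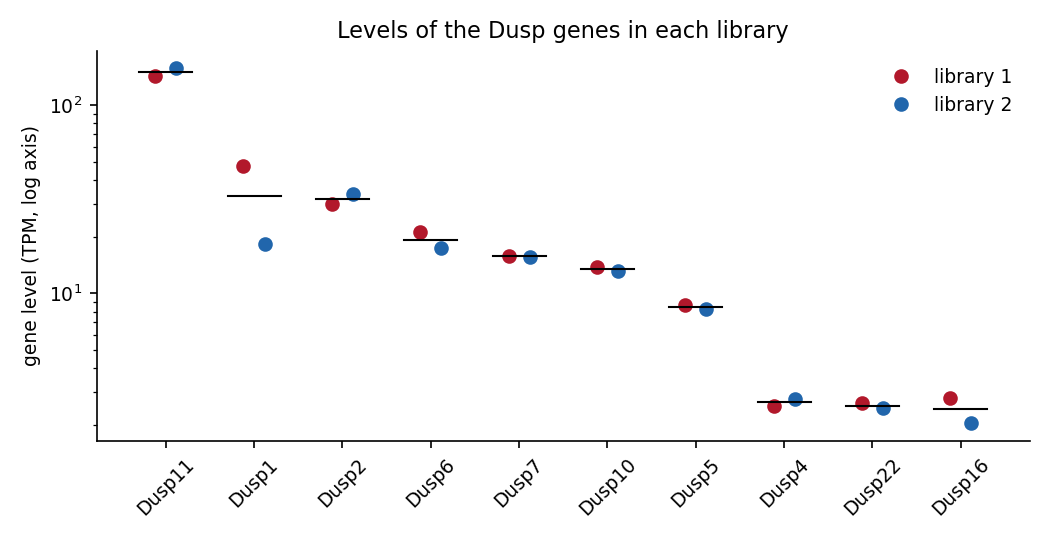
Level of each of the 10 Dusp genes in TPM on a log axis, with library 1 and library 2 as points and their mean as a bar. Dusp11 stands above all others, the 2 points of Dusp1 lie far apart at 47.2 and 18.3 TPM, and Dusp4, Dusp22 and Dusp16 share the lowest levels.

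The order of neighbouring levels was set against the posterior intervals that the authors deposited with their posterior mean TPM, whose probability level the headers do not give. Within each library the intervals of Dusp11, Dusp1, Dusp2 and Dusp6 did not overlap between neighbours in the order of mean levels. In library 2, however, Dusp1, at 14.9 to 18.5, overlapped Dusp6, at 14.5 to 17.8, on that posterior scale. The intervals of Dusp6 and Dusp7 overlapped in library 2 and not in library 1. Those of Dusp7 and Dusp10 overlapped in both libraries, as did those of Dusp4, Dusp22 and Dusp16 between neighbours. Dusp5 stood apart from both of its neighbours in both libraries.

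The libraries come from 1 sample, so their ratio shows only how well each level repeats technically. Errors that both libraries share, such as the length given to a gene, do not appear in it. The difference in Dusp1 was known when the genes were chosen, so the ratios are a description, and with 1 library on each side no test was run. For Dusp1, 1018 estimated counts in library 1 stood against 381 in library 2. After scaling to library size, this was 2.73-fold higher in library 1 (log2 ratio 1.45), with an exact 95% Clopper-Pearson interval of 2.42- to 3.08-fold. These intervals cover counting error only. Of all 12704 genes whose counts summed to at least 50, 8.96% differed by 1.5-fold or more either way, with 4.46% higher and 4.49% lower in library 1. Among the 10 Dusp genes 1 did, namely Dusp1, which is a share near that of all genes and is no result about the set.

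The other 9 genes stayed under 1.5-fold, with a median absolute log2 ratio of 0.18, against 0.16 over all genes with 50 or more counts. Nearest to the threshold was Dusp16, with 140 counts in library 1 and 101 in library 2, 1.41-fold higher in library 1 (interval 1.09 to 1.85). Dusp22 had 64 counts in library 1 and 50 in library 2, with an interval from 0.889- to 1.93-fold that includes equality. Dusp2 ran the other way, at 542 counts in library 1 and 659 in library 2, a log2 ratio of -0.25. Dusp6 had 658 and 578 counts, a log2 ratio of 0.22. Equality lay within the intervals of Dusp4, Dusp5, Dusp7, Dusp10 and Dusp11 as well. Dusp11, with 3207 and 3248 counts, had the narrowest interval, with a log2 ratio of 0.01 (interval -0.06 to 0.08). Taken from TPM + 0.5, the Dusp11 log2 ratio was -0.12, outside that interval.

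Dusp1 was set beside genes of its depth, as a description only, since it was chosen with its difference known. The minimum of 1000 counts used for this lies under its own sum of 1399. Among the 5523 genes whose counts summed to at least 1000, with a median absolute log2 ratio of 0.10, no other gene had a log2 ratio as high as that of Dusp1 or as large in either direction. Of these genes 0.38% passed 1.5-fold either way and 0.344% were higher in library 1. The next gene was the noncoding RNA AY036118, with a log2 ratio of 1.29, and the next protein-coding gene was Trpc4ap, with 0.79. With the minimum lowered to 50 counts, 51 of 12704 genes had a log2 ratio at or above that of Dusp1, itself included. The protein-coding genes whose levels lay nearest to those of Dusp1 over both libraries, by distance in log2(TPM + 1), were Mfsd4a at 0.34, Rp9 at 0.38 and Dcp1a at 0.49. Mfsd4a had 39.97 TPM in library 1 and 21.9 TPM in library 2.

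**Figure D2:**
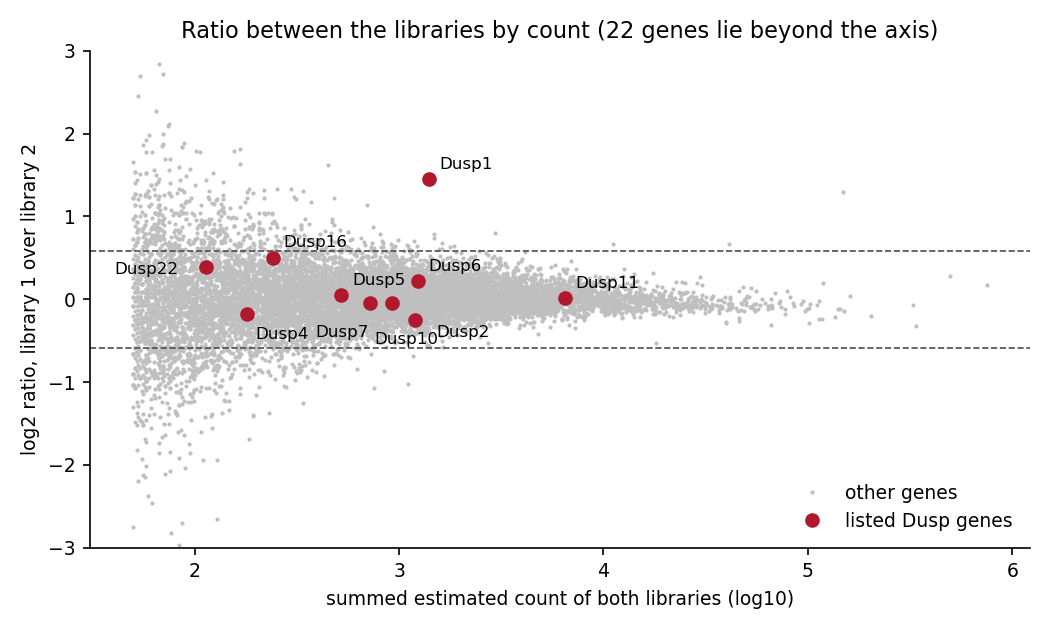
Log2 ratio of library 1 over library 2 for each gene with 50 or more summed counts, against the log10 of that sum, with the 10 Dusp genes in red and dashed lines at 1.5-fold. Ratios narrow as counts grow, 9 Dusp genes lie between the lines, and Dusp1 lies above them at 1.45.

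The deposited GENCODE M4 counts, whole numbers per gene made from a genome alignment of the same libraries, held all 10 genes at lower depth. Dusp1 had 422 counts in library 1 and 120 in library 2, 3.49-fold higher in library 1, and no other of the 4294 genes with 500 or more summed M4 counts had so high a ratio. With 50 or more, 2 of 9174 genes had a ratio at or above that of Dusp1, itself included. Dusp2 had 111 and 166 M4 counts, a log2 ratio of -0.59 that also passed 1.5-fold there. Of all 9174 genes with 50 or more M4 counts, 6.78% passed 1.5-fold either way, with 4.21% higher and 2.57% lower in library 1. For Dusp16 and Dusp22, which had 24 and 13 M4 counts in library 1 and 29 and 18 in library 2, the M4 ratio had the opposite sign from the M21 ratio. The M4 count of Dusp10 was 52.9% of its M21 count in library 1 and 51.8% in library 2, the highest shares of the 10 genes. The median over 9669 genes was 40.1% and 39.2%. The other members lay below it in both libraries, except Dusp1 at 41.5% in library 1. Dusp7, the lowest, kept 35 and 37 of its 350 and 370 counts. Both tables describe the same libraries, so the M4 counts are no replicate of the M21 counts.

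The transcript tables place the Dusp1 difference on some of its annotated RNAs. Dusp1-202, the 1990-base coding transcript with 4 exons and 367 codons, had 515.5 estimated counts in library 1 and 56.5 in library 2, 9.34-fold higher in library 1 (interval 7.14 to 12.6). Dusp1-206, a 1587-base coding transcript, had 201.4 counts in library 1 and 224.6 in library 2, a log2 ratio of -0.13. Dusp1-203 and Dusp1-204, which retain introns, had 231.2 and 69.9 counts in library 1 and 76.8 and 23.2 in library 2. Dusp1-202 therefore held 45.2% of Dusp1 TPM in library 1 and 12.2% in library 2, while Dusp1-206 held 22.3% and 61.3%. The fold intervals given here and below for transcripts take the assigned counts as known, so they leave out the uncertainty of the assignment. The authors' intervals for these splits rest on a model. For Dusp1-202 they ran from 13.4 to 23.7 TPM in library 1 and from 0.349 to 4.06 TPM in library 2. Of the 29657 transcripts with 50 or more counts 28.6% differed by 1.5-fold between the libraries. Past 4-fold were 6.21% either way and 3.28% with the higher value in library 1. Of the 9351 transcripts with 500 or more counts, 22 had a log2 ratio at or above that of Dusp1-202, itself included.

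Dusp1-202 and Dusp1-206 share their internal exons and, to within 1 base, their last, and differ at the first, which is 563 bases long in Dusp1-202 and 161 in Dusp1-206. The first splice junction of each is printed 5′ to 3′ on the minus strand of chromosome 17 (mm10) to show the difference, with 15 bases of the first exon in capitals and 15 bases of the second in lower case.
Dusp1-202: TCTTCTTTCTCCAAGgaggatatgaagcgt
Dusp1-206: GCCATGGTGATGGAGgaggatatgaagcgt
The first exon of Dusp1-202 ends with chr17:26507957-26507971, that of Dusp1-206 with chr17:26508312-26508326, and both continue at chr17:26507705-26507719. The 355 bases at chr17:26507957-26508311 are therefore exon in Dusp1-202 and Dusp1-203 and spliced out in Dusp1-206. The annotated coding part of Dusp1-206 has 174 codons and keeps the signature.

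A split of the Dusp1 transcripts by this segment was chosen after their values were seen. Transcripts with the segment, Dusp1-202 and Dusp1-203, had 747 counts in library 1 and 133 in library 2, 5.72-fold higher in library 1 (interval 4.77 to 6.95). Transcripts without it, Dusp1-206 and Dusp1-204, had 271 counts in library 1 and 248 in library 2, a ratio of 1.12 (interval 0.936 to 1.33). Both sums pool unlike members, so the segment does not separate the transcripts that differed from the one that did not. With the segment, Dusp1-202 was 9.34-fold higher in library 1 and Dusp1-203 was 3.05-fold higher (interval 2.36 to 4.02). Without it, Dusp1-204 was 3.06-fold higher in library 1 (interval 1.92 to 5.22) and Dusp1-206 was not. Dusp1-204 is annotated from 796 bases past the start of Dusp1-202, beyond the segment. Its counts therefore cannot show whether the segment was used. Transcripts with the segment took 73.3% of Dusp1 counts in library 1 and 35.0% in library 2. Where reads lie along the gene was not measured here, so the split shows how the authors' model assigned the counts. Retained-intron transcripts held 29.6% of Dusp1 counts in library 1 and 26.2% in library 2. Over all genes, retained-intron transcripts held 7.21% of counts in library 1 and 7.24% in library 2.

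**Figure D3:**
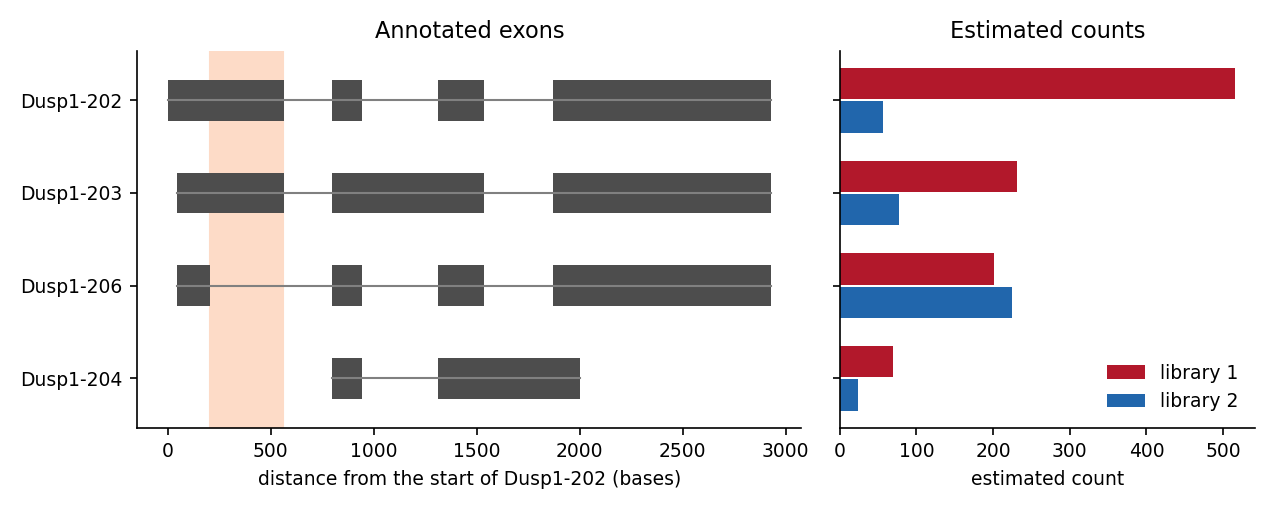
Left, annotated exons of the 4 Dusp1 transcripts with counts, as distance in bases from the start of Dusp1-202, with the 355-base first-exon segment shaded. Right, their estimated counts in library 1 and library 2: Dusp1-202 had 515.5 and 56.5 and Dusp1-206 had 201.4 and 224.6.

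The annotated Dusp1 interval reaches far upstream through Dusp1-201 and Dusp1-205, which had no counts in either library. Of the genes that overlap the interval, Ergic1, a protein-coding gene on the opposite strand, was given 806 counts in library 1, against 751 in library 2, a log2 ratio of 0.13. The pseudogene Gm8225 had 4 counts in each library, and AC122252.4 and AC122252.1 had none. For 9 of the 10 Dusp genes, Dusp1 among them, the authors' posterior SD of the gene count was 0 in both libraries, so the assignment of reads to the gene carried no modelled uncertainty. The exception was Dusp5, with a posterior SD of 0.56 counts in library 1 and 0.18 in library 2.

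The other members fall into genes with 1 main RNA and genes split among several. Of the 40 transcripts, 22 held 10% or more of their gene's TPM in either library and 7 had no counts. Dusp4 and Dusp5 have a single annotated transcript. Dusp10-201 held 94.3% of Dusp10 TPM in library 1 and 100.0% in library 2, and Dusp2-201 held 87.4% and 91.7% of Dusp2 TPM. Dusp2-202, which retains an intron, held the rest of Dusp2, 12.6% and 8.34%. Dusp6-201 held 65.6% and 70.2% of Dusp6 TPM and the shorter coding Dusp6-204, with 235 codons against 381, held 28.9% and 25.7%.

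For Dusp7 and Dusp11 the leading transcript by TPM was no full coding RNA. Dusp7-204, a 1020-base transcript with no annotated coding part, was given 60.8% of Dusp7 TPM in library 1 and 61.7% in library 2, while the coding Dusp7-201 held more of the counts, 230.8 and 247.4 against 116.5 and 122.6. Dusp11-207, annotated for nonsense-mediated decay, was given 40% of Dusp11 TPM in library 1 and 33.6% in library 2. The coding Dusp11-201 held 19.98% and 16.4% of the TPM but 2278 and 2145 of the counts. Dusp11-206, a noncoding transcript, had 59.1 counts in library 1 and 141.3 in library 2, although the whole gene differed by a log2 ratio of 0.01. Dusp11-205, also noncoding, had 195.9 and 296.4 counts, or 13.2% and 17.5% of the TPM. The authors' intervals overlapped between the libraries for both. They ran from 2.29 to 16.0 TPM in library 1 and 14.7 to 29.0 in library 2 for Dusp11-206. For Dusp11-205 they ran from 9.73 to 22.6 and from 17.6 to 33.0. Dusp11-207 is 677 bases long, against 6435 for Dusp11-201.

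For 8 of the 10 genes the transcript with the largest share of TPM was the same in both libraries. The exceptions were Dusp1 and Dusp16. Dusp16-202, with 338 codons, held 48.6% of Dusp16 TPM in library 1 and 13.7% in library 2, from 66.2 and 14.5 counts. Dusp16-204, with 206 codons and no signature, held 26.0% in library 1 and 46.1% in library 2, from 29.3 and 40.1 counts. Dusp16-201, the longest form with 660 codons, had 44.5 and 44.6 counts. Dusp22-201 led Dusp22 with 50.3% and 74.8%, on 18.1 counts in library 1 and 26.7 in library 2, and Dusp22-202 held 40.9% and 21.99%, on 39.4 and 20.9 counts, so these shares are imprecise.

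The share of counts on transcripts whose coding part holds the signature differed among the genes. It was 100% for Dusp4 and Dusp5 and lay between 93.9% and 100% in both libraries for Dusp2, Dusp6 and Dusp10. It was 70.4% in library 1 and 73.8% in library 2 for Dusp1, where the rest sat on retained-intron transcripts. For Dusp7 it was 66.7% and 66.9%, for Dusp11, with Dusp11-207 included, 85.0% and 79.3%, for Dusp22 89.9% and 95.2%, and for Dusp16 79.1% and 58.5%. By TPM the share was lower for Dusp7, at 39.2% in library 1 and 38.3% in library 2, and for Dusp11, at 59.98% and 50.1%. Although the Dusp1 count differed 2.73-fold between the libraries, its signature share of counts differed by less than that of Dusp16.

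**Figure D4:**
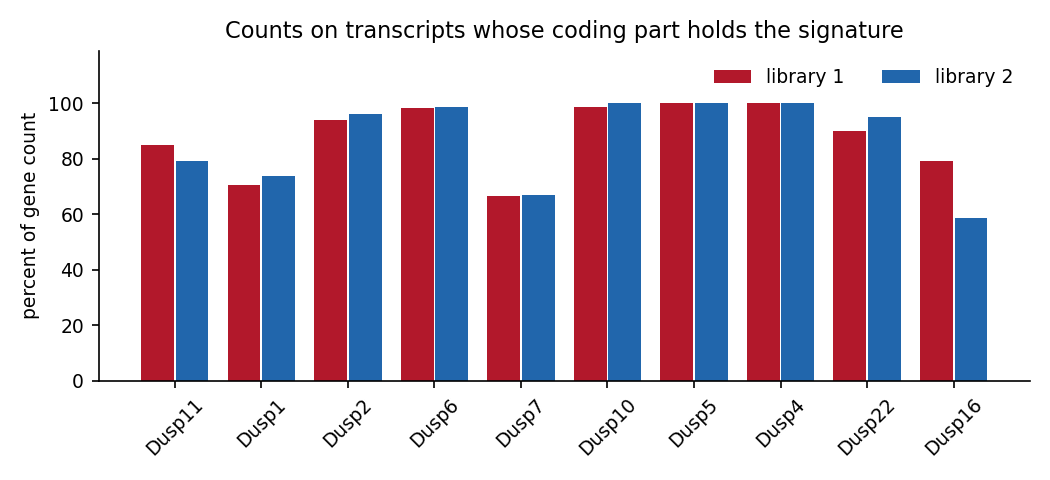
Percent of each gene's estimated counts given to transcripts whose annotated coding part holds the catalytic signature, in library 1 and library 2. Dusp7 lies at 66.7% and 66.9%, Dusp1 at 70.4% and 73.8%, and Dusp16 at 79.1% and 58.5%.

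The remaining Dusp genes and the kinases that these enzymes act on were listed with earlier results of the data known. Of 14 other Dusp genes 5 were at 1 TPM or more in both libraries, led by Dusp19 at 17.2 TPM in library 1 and 14.1 TPM in library 2, and Dusp21, Dusp26 and Dusp27 had no counts, which allows up to 3 counts in a library. Of 13 MAP kinase genes 9 reached 1 TPM in both libraries, led by Mapk6, an atypical kinase, at 26.7 and 23.1 TPM. All 7 MAP kinase kinase genes did too, and Map2k3, an activator of p38, led with 35.5 and 35.8 TPM. The 9 genes listed for the step above, the Ras and Raf genes with the exchange factor genes Rasgrp1, Sos1 and Sos2, were all at that level, led by the Raf kinase gene Araf at 88.7 and 84.6 TPM. Of 9 ERK feedback genes, such as the Sprouty genes, 4 reached it, with Spry1 highest at 5.79 and 6.82 TPM.

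Immediate early genes, the class to which Dusp1 belongs, were compared in the same way. Of 30 listed, 26 had 50 or more counts. Of these 1 was higher in library 1 past 1.5-fold, Nr4a3 with 101 counts in library 1 and 66 in library 2, and 1 was lower there, Nr4a2 with 46 and 74 counts. These 2 of 26 are a share near the 8.96% of all genes and are no result about the class. The median log2 ratio of the 26 genes was -0.01 and their range -0.65 to 0.64, below the 1.45 of Dusp1. Nfkbia, the highest of them by TPM, had 513.1 TPM in library 1 and 490.9 TPM in library 2. Egr1, an early target of ERK, had 500 and 598 counts. Junb, an AP-1 subunit gene, had 583 and 501. The same fold was passed by 1 of 6 other Dusp genes compared, 1 of 7 MAP kinase kinase genes and 1 of 9 genes of the Ras and Raf list. Dusp3 and Map2k6 were lower in library 1, with 35 and 102 counts there and 58 and 162 in library 2. Hras was higher there, with 40 counts against 27, and its log2 interval of -0.14 to 1.36 includes equality. No MAP kinase gene and no ERK feedback gene passed it, of 9 and 4 compared. All of these numbers are too small to set against 8.96%.

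**Figure D5:**
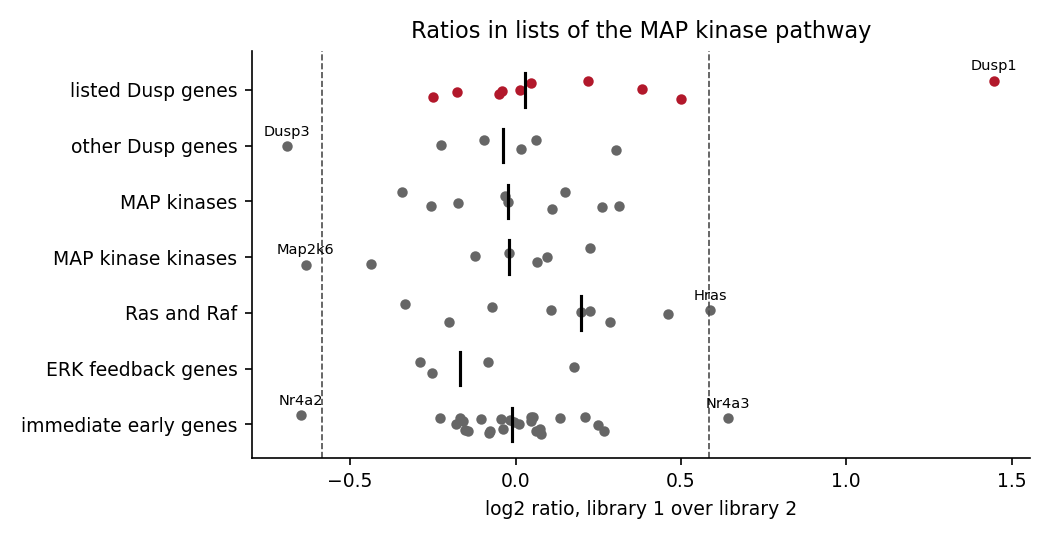
Log2 ratio of library 1 over library 2 for the genes of each list with 50 or more summed counts, with list medians as vertical bars, dashed lines at 1.5-fold and the genes past them named (the Ras and Raf row also holds Rasgrp1, Sos1 and Sos2). Dusp1, at 1.45, lies outside the range of the immediate early genes, -0.65 to 0.64.

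Of the markers of other cell types, 1 of 5 myeloid, none of the 4 B cell and 4 of 5 CD8 T and NK cell markers were at 1 TPM or more in both libraries. The CD8 T and NK cell markers summed to 14.0 TPM in library 1 and 12.3 TPM in library 2, and none of the 4 compared passed 1.5-fold. Of the myeloid markers 2 reached the minimum of 50 summed counts, and these passed 1.5-fold in opposite directions. That number is too small to set against the 8.96% of all genes. Csf1r, a myeloid receptor gene, had 44 counts in library 1 and 12 in library 2, while Tyrobp, also myeloid, had 16 and 34. The other myeloid markers were under the minimum and were not compared. Itgam had 21 counts in library 1 and 20 in library 2, S100a8 had 1 and 2, and Lyz2 had none and 4. No B cell gene reached the minimum either. Ms4a1 had 30 counts in library 1, against 3 in library 2, and Cd79a had 15 and 30. The part of these markers in the Dusp1 difference was not tested. In such bulk RNA, fewer cells of a type and less RNA per cell cannot be told apart.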

How the data were processed

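PolyA plus RNA-seq was read for 2 technical libraries of 1 sample. Per the deposited readme texts, all tables use mm10. The expected counts (estimated counts), TPM, FPKM and transcript percent of gene TPM were deposited by the authors with GENCODE M21, in columns named as RSEM writes them. The deposited posterior mean TPM and its interval bounds were handled as a score. The whole-number counts were deposited with GENCODE M4. Aligner, counter, versions and strand setting were each not given in the sources used here.

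Expected counts were rounded, library sizes were scaled by TMM (edgeR 4.0.16; size factors of DESeq2 1.42.0 as an alternative), and log2 ratios put library 1 over library 2, with 0.5 added as prior count. A gene was compared at a summed count of 50 or more and called at 1.5-fold, with no test. Intervals are exact Clopper-Pearson intervals at 95%, conditional on the sum (SciPy 1.17.1). The ratio and its interval were tested on simulated data. Annotation and sequences come from GENCODE M21. Named were the 10 genes, their transcripts at 10% or more of TPM, the 3 nearest genes to Dusp1, genes overlapping Dusp1, and in each pathway list the highest gene and those past the fold; Foxp3, Egr1, Junb, AY036118, Trpc4ap, Ms4a1, Cd79a, the other Dusp genes at 0 and the markers at 0 were added after their values were seen. The members and lists were chosen with earlier results of these data known. Library sizes set the precision of counts; biological variation was not measured.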

Additional observations from a re-analysis of the deposited data

How the results depend on the processing

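No paired analysis was possible because the 2 libraries form 1 group. All 10 genes stayed at 1 or more by posterior mean TPM, FPKM, M4 CPM, and in each library alone (10 to 10), and 7 reached 5 TPM. By posterior mean TPM, 8 of the 10 mean levels moved by more than 1 SD. The low end changed order there, with Dusp16 at 2.98 above Dusp22 at 2.82 and Dusp4 at 2.38. Dusp1 was past the fold as the only one of the 10 genes under every scaling, filter, prior count and fold tried on the M21 tables; with M4 counts 2 passed, Dusp1 and Dusp2. Over all genes, 1138 passed 1.5-fold; 3822 did with a summed count of 10 or more, 13686 with no filter, 264 with 200 or more, 332 at 2-fold, and 622 with M4 counts. Fewer or more genes enter under another filter by construction, and the cause of the M4 difference was not tested. Named transcripts numbered 22, and 21 to 21 in each library alone. Of 50 recomputed ratios of single members, 45 stayed within the counting interval, 5 lay outside it and the sign held for Dusp1, the only called gene. Those outside were the M4 ratios of Dusp1, Dusp2, Dusp16 and Dusp22 and the TPM ratio of Dusp11. The ratio between the libraries has no value with 1 library left out. Per kilobase of the longest coding transcript, an alternative chosen after seeing the data, Dusp11 was 1.42 times Dusp1 and by posterior mean TPM 4.56 times. Dusp16 and Dusp22 had 241 and 114 summed counts, so their transcript shares are limited by depth.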
